A study of Mus musculus with 8 samples.

Results

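Complex III of the respiratory chain was followed through the 9 nuclear genes that encode its subunits, Uqcrc1, Uqcrc2, Uqcrfs1, Uqcrb, Uqcrq, Uqcrh, Uqcr10, Uqcr11 and Cyc1, in primordial follicles of the mouse ovary. The genes were taken by symbol, 9 of the 26586 symbols in the count table. They were selected on the counts of these same libraries, in which Uqcrc1 stood apart from its partners, so the size of that departure is a description and carries no test. RNA-Seq had been performed on 4 control and 4 mitochondrial supplemented (mito-supplemented) samples, and the question asked of the series was whether supplementing an oocyte with additional mitochondria alters gene expression in the follicles of later offspring. Both groups had a C57Bl/6 x CBA background and were collected on postnatal day 3. The mito-supplemented samples came from the third generation after founders that were made by injecting a spermatozoon and an isolate of mitochondria into an oocyte of an F1 female. The donors of the mitochondria were egg precursor cells of this strain. The controls came from colony mice, so that they carried neither the added mitochondria nor a history of injection and embryo transfer, and these cannot be told apart. The follicles were collected with fine pipette tips after digestion of the ovary, the follicles of an ovary were pooled, and the RNA was amplified before sequencing. The labels call the samples biological replicates and give each a code whose meaning is not stated. Each code's first part occurs in a single group.

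Complex III (ubiquinol-cytochrome c oxidoreductase) takes electrons from ubiquinol and passes them to cytochrome c, while protons are moved across the inner mitochondrial membrane. Its redox centres are carried by cytochrome b, which mitochondrial DNA encodes, by cytochrome c1 (Cyc1) and by the Rieske iron-sulfur protein (Uqcrfs1). The core proteins Uqcrc1 and Uqcrc2 face the matrix and are related to the mitochondrial processing peptidase, and the small subunits Uqcrb, Uqcrq, Uqcrh, Uqcr10 and Uqcr11 surround the catalytic centre. The subunits are assembled in fixed proportions in the protein complex. Oocytes depend on mitochondria for energy, and primordial follicles hold an arrested oocyte within a single layer of flattened granulosa cells. Cytochrome b was not analysed here, as no symbol of the table matched it.

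The promoters of 3 members are shown because these genes mark the ends of the range of counts and a level between them. Uqcrc1 had the highest counts, Uqcr11 had 0 counts in all 8 libraries, and Uqcrh was counted at a moderate level in each. The sequences are from RefSeq on GRCm38.p6 and run from 250 bases before to 50 bases after the annotated start of the gene. Promoters were matched by symbol for 5 of the 9 members. The window of Uqcrc1 lies on the + strand at chr9:108936398-108936697, that of Uqcrh on the - strand at chr4:116075021-116075320, and that of Uqcr11 on the - strand at chr10:80406772-80407071. Capitals mark matches, on either strand, to the palindromic motif of the nuclear respiratory factor NRF1, CCGGAAG (ETS family), CCAAT (NF-Y) or TATAAA (the TATA box).
Uqcrc1: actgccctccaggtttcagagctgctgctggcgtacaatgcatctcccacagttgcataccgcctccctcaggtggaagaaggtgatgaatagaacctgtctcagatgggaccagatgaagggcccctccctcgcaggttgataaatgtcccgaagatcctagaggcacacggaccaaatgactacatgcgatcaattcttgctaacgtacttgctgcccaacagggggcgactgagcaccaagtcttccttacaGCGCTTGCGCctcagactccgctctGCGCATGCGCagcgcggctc
Uqcrh: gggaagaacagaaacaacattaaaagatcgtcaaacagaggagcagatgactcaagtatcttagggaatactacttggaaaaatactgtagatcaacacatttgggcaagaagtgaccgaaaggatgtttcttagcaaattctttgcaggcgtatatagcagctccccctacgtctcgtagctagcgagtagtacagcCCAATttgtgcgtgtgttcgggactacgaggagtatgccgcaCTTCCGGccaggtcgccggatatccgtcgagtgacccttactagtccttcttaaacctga
Uqcr11: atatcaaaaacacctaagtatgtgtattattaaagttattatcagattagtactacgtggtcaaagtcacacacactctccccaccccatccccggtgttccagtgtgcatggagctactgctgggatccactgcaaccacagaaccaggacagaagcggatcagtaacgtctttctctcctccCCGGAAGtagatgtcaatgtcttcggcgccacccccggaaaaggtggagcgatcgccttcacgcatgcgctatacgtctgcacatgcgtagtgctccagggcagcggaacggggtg

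The Uqcrc1 window held 2 matches of the NRF1 motif, which is present in 4.60% of 32851 promoters of this length, and none of the other 3 motifs. The Uqcrh window held 1 match of CCGGAAG, present in 8.86% of promoters, and 1 of CCAAT, present in 37.4%. The Uqcr11 window held 1 match of CCGGAAG. The Uqcr10 promoter had 1 CCAAT match, and the Uqcrfs1 promoter had no match to any of the 4 motifs. TATAAA, present in 13.6% of promoters, was in none of the 5. The matches do not overlap one another and describe letters only.

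The libraries held between 10370045 and 19760763 counts, and a share of 14.9% to 74.0% of them fell on Rnr1 and Rnr2, the mitochondrial ribosomal RNA genes, with the highest share in control replicate 4. Markers of cells other than the follicle were present in each library and moved between libraries. The summed level of 15 oocyte markers was 181 to 3699 CPM (counts scaled to the size of the library) in controls, highest in control replicate 1, and 125 to 785 CPM in mito-supplemented samples. The 11 granulosa cell markers summed to 93.6 to 373 CPM and 121 to 389 CPM, and the 8 stromal markers to 336 to 2199 CPM and 949 to 2480 CPM. Markers of the surface epithelium (8 genes) summed to 35.3 to 373 CPM in controls and 358 to 929 CPM in mito-supplemented samples, those of the endothelium (6 genes) to 25.6 to 212 CPM and 94.9 to 225 CPM, and those of smooth muscle (6 genes) to 21.2 to 266 CPM and 44.3 to 360 CPM, in the same order. The part of these cells in the levels of the subunits was not tested. All 15 oocyte and all 11 granulosa markers had over 3 counts in at least 1 library. Fewer cells of a type and less RNA per cell cannot be told apart in such bulk samples.

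Uqcrc1, core protein 1, is encoded on chr9:108936633-108949623 of GRCm38, on the + strand, with 4135 bases of exon in GENCODE M21. In controls it had 556073, 3850, 603799 and 3283 counts in replicates 1 to 4. In mito-supplemented samples it had 3472006, 252007, 5031 and 6857 counts. Thus 4 libraries held between 3283 and 6857 counts, the other 4 held between 252007 and 3472006, and no library lay between. Each group held 2 libraries of either kind, so the groups overlapped, although mito-supplemented samples held both the lowest and the highest CPM. The values were 22811, 305, 34530 and 648 CPM in controls, compared with 168468, 17453, 228 and 477 CPM in the mito-supplemented group after TMM normalization, in which totals are scaled by a factor that balances most genes between libraries. The highest library was therefore 738-fold above the lowest on the log2 CPM scale with a prior count of 2.

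In mito-supplemented replicate 1, Uqcrc1 took 17.6% of all counts in the library and was the most highly counted gene of the table. It ranked 3rd by counts in mito-supplemented replicate 2 and 4th in control replicates 1 and 3, where it took 1.88%, 3.15% and 3.31% of counts. In the remaining libraries its rank was 353 in control replicate 2, 41 in control replicate 4, 261 in mito-supplemented replicate 3 and 77 in mito-supplemented replicate 4, with 0.0277% to 0.0516% of counts. Counting error was small even for the lowest share, which had a 95% Wilson interval of 0.0268% to 0.0286%. Within the complex, Uqcrc1 made up 98.9%, 58.7%, 99.3% and 78.6% of the counts of the 9 subunits in controls. It made up 99.9%, 99.1%, 57.5% and 71.6% in mito-supplemented samples. The counts of its partners together stayed between 892 and 5954 per library.

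The departure of a subunit from its complex was taken in each library as its log2 CPM less the median log2 CPM of the other 8 subunits. For Uqcrc1, the departure was 9.71, 3.56, 10.04 and 5.09 in control replicates 1 to 4. It was 12.90, 9.75, 3.55 and 4.46 in mito-supplemented replicates 1 to 4. Uqcrc1 was hence above the median of its partners in all 8 libraries, by 11.8-fold in both control replicate 2 and mito-supplemented replicate 3 and by up to 7622-fold in mito-supplemented replicate 1. Long genes collect more reads, and when levels were taken per kilobase (kb) of exon, Uqcrc1 was above the median of its partners by 349-, 3.87-, 390- and 13.3-fold in controls. The corresponding values in mito-supplemented samples were 2566-, 347-, 4.75- and 7.60-fold. Against Uqcrc2, the other core protein, the ratio of CPM per kb was 171, 3.83, 325 and 8.48 in controls and 1409, 195, 2.71 and 4.90 in mito-supplemented samples.

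The mean departure of Uqcrc1 was 7.10 ± 3.27 (SD, n = 4) for controls against 7.67 ± 4.43 (SD, n = 4) for the mito-supplemented group, a difference of 0.56 on the log2 scale that was smaller than the SD within either group. Leaving out mito-supplemented replicate 1 turned the difference to -1.18, and leaving out mito-supplemented replicate 3 raised it to 1.93. It was also below 0 when control replicate 2 (-0.62), mito-supplemented replicate 2 (-0.13) or control replicate 4 (-0.10) was left out, and was 1.44, 1.54 and 1.63 without control replicate 1, control replicate 3 and mito-supplemented replicate 4.

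**Figure D1:**
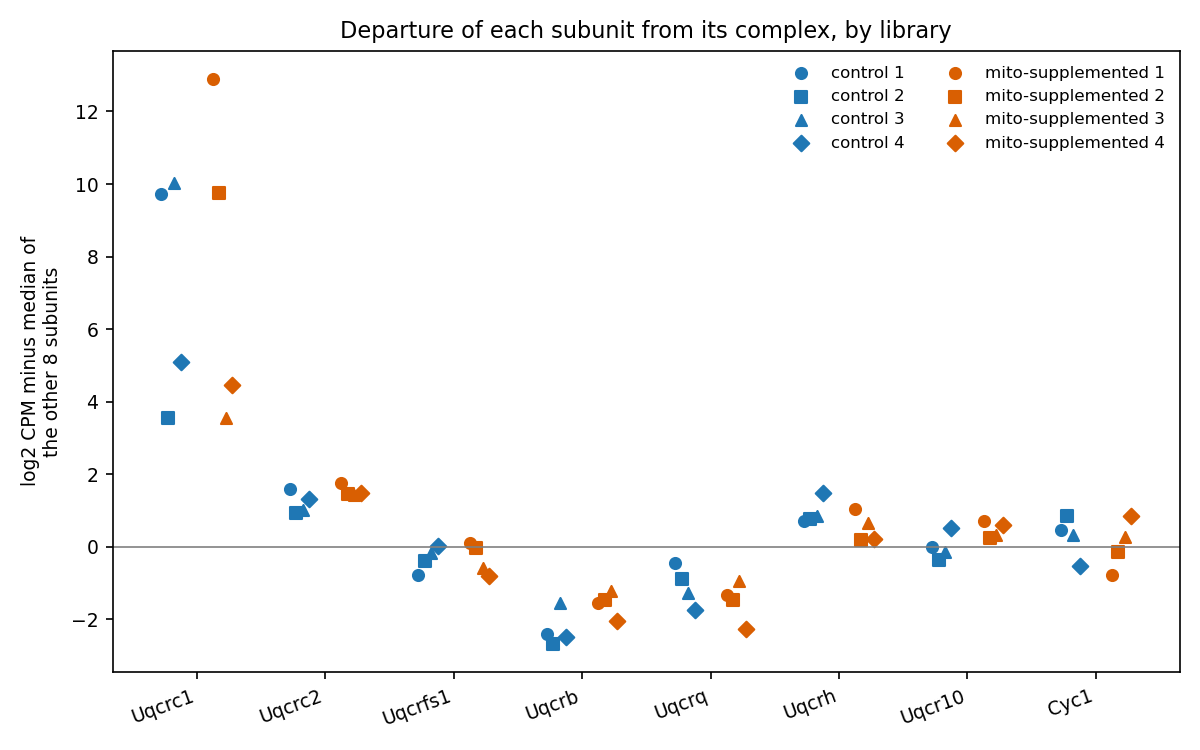
Departure of the 8 counted complex III subunits, as log2 CPM less the median of the other 8 subunits (y axis), for each subunit (x axis); each point is 1 library, coloured by group and shaped by replicate number. Uqcrc1 runs from 3.55 to 12.90 with 2 libraries of each group at or above 9.71, while the other 7 subunits lie between -2.68 and 1.74.

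The other counted subunits varied little across the libraries. The departure ranged over 9.34 log2 units between libraries for Uqcrc1, but over 0.81 for Uqcrc2, 0.91 for Uqcrfs1, 1.07 for Uqcr10, 1.30 for Uqcrh, 1.46 for Uqcrb, 1.65 for Cyc1 and 1.81 for Uqcrq. The SD of Uqcrc1 in log2 CPM over the 8 libraries was 3.72 and ranked 42nd among the 13873 genes tested, whose median SD was 0.98. The 41 genes with a larger SD had a mean log2 CPM of at most 6.83, compared with 11.92 for Uqcrc1. Conversely, the SD was 0.22 for Uqcr10 (rank 13754), 0.28 for Uqcrc2 (rank 13513), 0.35 for Uqcrfs1 (rank 13120), 0.48 for Uqcrh (rank 11918), 0.53 for Uqcrb (rank 11386), 0.60 for Cyc1 (rank 10641) and 0.69 for Uqcrq (rank 9739). All 7 varied less than the median gene, and 0.858% of genes varied less than Uqcr10.

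Subunits of the other respiratory complexes, each set against the rest of its own complex, gave a scale for these values. The range of departure had a median of 1.68 over 35 genes of complex I, 1.61 over 11 genes of complex IV and 1.5 over 16 genes of complex V. The median was 1.30 over the 7 counted complex III subunits without Uqcrc1. For complex III, Uqcr11 at 0 counts entered the median of the partners, whereas the other complexes used tested genes only. Without Uqcr11 the 7 ranges were 0.53 (Uqcrc2), 0.80 (Uqcrfs1), 1.16 (Uqcr10), 1.53 (Uqcrh), 1.77 (Uqcrq), 1.81 (Uqcrb) and 1.84 (Cyc1). The range of Uqcrc1 was then 9.33. The widest range outside complex III was 5.23, for Ndufs6 of complex I, which had 9 counts in its lowest library. Uqcrc1 was thus the gene with the widest range among the 70 compared, a value that had led to its choice.

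**Figure D2:**
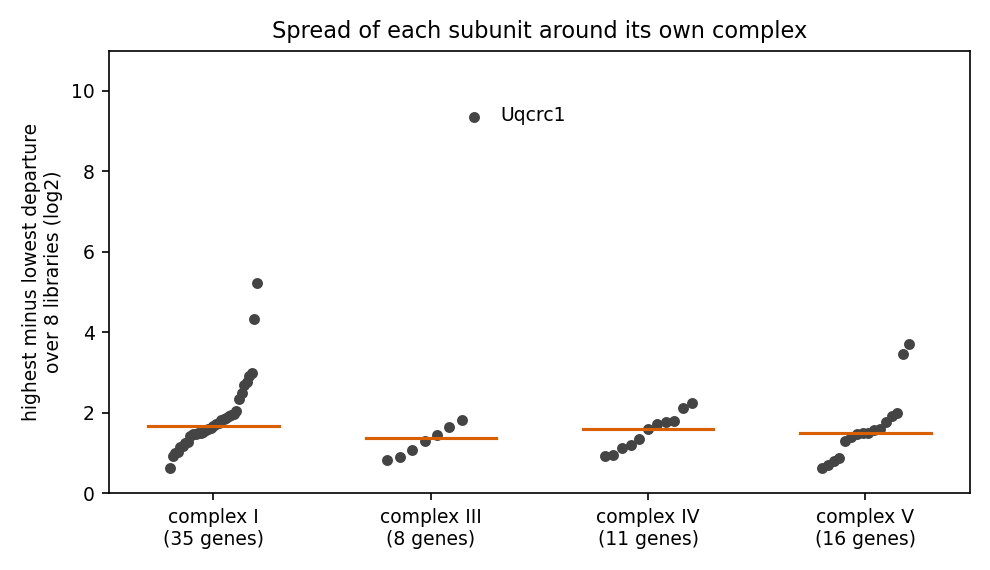
Range of departure over the 8 libraries (highest less lowest, log2 units, y axis) for each tested nuclear-encoded subunit of complexes I, III, IV and V (x axis); points are genes and the orange lines are medians. Uqcrc1 lies at 9.34, and no other gene exceeds 5.23.

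Uqcrc2, core protein 2, lies on chr7:120635176-120659524 on the + strand with 2552 bases of exon. It had 2007, 621, 1146 and 239 counts in the controls, in replicate order, and 1521, 799, 1147 and 863 in the mito-supplemented samples. The corresponding levels were 82.3, 49.2, 65.5 and 47.2 CPM, and 73.8, 55.3, 52.0 and 60.003 CPM. Control replicate 1 was the highest and control replicate 4 the lowest, and the groups overlapped. The means were 61.1 ± 16.4 CPM (SD, n = 4) for controls against 60.3 ± 9.58 CPM (SD, n = 4) for the mito-supplemented group, with a log2 fold change of -0.02 (SE 0.32; adjusted p = 0.988, from the quasi-likelihood test of edgeR, adjusted by Benjamini-Hochberg over all genes tested).

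Uqcrfs1, the Rieske iron-sulfur protein that takes the first electron from ubiquinol, lies on chr13:30540308-30545362 on the - strand with 1363 bases of exon. Its counts were 473, 324, 566 and 109 in controls and 556, 298, 349 and 243 in mito-supplemented samples. These gave 19.4, 25.7, 32.4 and 21.5 CPM, and 27.0, 20.6, 15.8 and 16.9 CPM. The 2 lowest libraries were mito-supplemented and the highest was a control, with overlap between the groups. The log2 fold change was -0.30 (SE 0.37; edgeR adjusted p = 0.820). It was -0.14 without control replicate 3, and leaving out mito-supplemented replicate 1 or 3 gave -0.45 or -0.18. Scaling libraries by their totals only gave -0.021, and limma-voom with sample quality weights gave -0.66.

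Cyc1, the cytochrome c1 that hands electrons to cytochrome c, lies on chr15:76343523-76346260 on the + strand with 2154 bases of exon. It had 912, 589, 718 and 84 counts in controls and 369, 285, 519 and 556 in mito-supplemented samples. The levels were 37.4, 46.7, 41.1 and 16.6 CPM, and 17.9, 19.7, 23.5 and 38.7 CPM. Of the 4 highest libraries 3 were controls, but control replicate 4 was the lowest of all 8. The means were 35.4 ± 13.1 CPM (SD, n = 4) and 25.0 ± 9.43 CPM (SD, n = 4), with a log2 fold change of -0.51 (SE 0.43; edgeR adjusted p = 0.755). It was -0.86 with an adjusted p of 0.0478 in limma-voom with sample quality weights, and 0.04 in edgeR without the 3 libraries highest in red cell markers (control replicates 2 and 3 and mito-supplemented replicate 1). Leaving out mito-supplemented replicate 4 gave -0.77, and the value was -0.31 with libraries scaled by their totals only.

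Uqcrh, the hinge protein that binds cytochrome c1, lies on chr4:116066965-116075071 on the - strand with 1237 bases of exon. Its counts were 1086, 553, 1023 and 267 in controls and 929, 329, 675 and 394 in mito-supplemented samples. The levels were 44.6, 43.8, 58.5 and 52.7 CPM, and 45.1, 22.8, 30.6 and 27.4 CPM. The 4 controls lay above 3 of the mito-supplemented samples, and mito-supplemented replicate 1 fell among the controls. The means were 49.9 ± 7.0 CPM (SD, n = 4) and 31.5 ± 9.62 CPM (SD, n = 4), with a log2 fold change of -0.66 (SE 0.34; edgeR unadjusted p = 0.0774, adjusted p = 0.667). This was the lowest p-value among the subunits. In limma-voom with sample quality weights, which gives less weight to libraries that fit poorly, the log2 fold change was -0.90 with an adjusted p of 0.0311, below the fold threshold of 1, and with libraries scaled by their totals only it was -0.36.

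Among the small subunits, Uqcr10, which sits beside cytochrome c1, lies on chr11:4701973-4704342 on the - strand with 584 bases of exon. It had 731, 327, 578 and 136 counts in controls and 739, 346, 535 and 468 in mito-supplemented samples. The levels of 30.0, 25.9, 33.1 and 26.8 CPM, and 35.9, 24.0, 24.3 and 32.5 CPM, made it the steadiest member. Its means of 29.0 ± 3.24 CPM (SD, n = 4) and 29.2 ± 5.98 CPM (SD, n = 4) gave a log2 fold change of 0.01 (SE 0.33; edgeR adjusted p = 0.994).

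Uqcrb, which contributes to the ubiquinone-binding region, lies on chr13:66900617-66905378 on the - strand with 876 bases of exon. It was the subunit with the fewest counts among those detected, with 150, 65, 216 and 21 in controls and 216, 112, 224 and 102 in mito-supplemented samples. The levels were 6.15, 5.15, 12.4 and 4.14 CPM, and 10.5, 7.76, 10.2 and 7.09 CPM. The 3 lowest libraries and the highest were all controls. The log2 fold change was 0.35 (SE 0.53; edgeR adjusted p = 0.853). It was 0.23, 0.78 and 0.19 without control replicates 2, 3 and 4, respectively, and 0.0077 in limma-voom with sample quality weights.

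Uqcrq, which lies beside cytochrome b in the complex, is encoded on chr11:53427922-53430831 on the - strand with 1831 bases of exon. It had 595, 230, 266 and 36 counts in controls and 255, 112, 274 and 88 in mito-supplemented samples. The levels were 24.4, 18.2, 15.2 and 7.11 CPM, and 12.4, 7.76, 12.4 and 6.12 CPM. The 3 highest libraries were controls, and control replicate 4 lay among the mito-supplemented samples. Its log2 fold change of -0.75 (SE 0.50; edgeR adjusted p = 0.713) was the lowest among the subunits and was -0.47 without control replicate 1. Uqcrq starts 191 bases from Gdf9, an oocyte growth factor gene on the opposite strand, which had 1463, 37, 49 and 68 counts in controls and 323, 60, 553 and 109 in mito-supplemented samples.

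Uqcr11, the smallest subunit, lies on chr10:80402997-80406830 on the - strand with 641 bases of exon and had 0 counts in all 8 libraries. A count of 0 allows a share of up to 3 counts of the total, here 1.52e-05% to 2.89e-05% of a library's counts, and such limits cover counting error only because amplified reads are not independent molecules. The genes on either side, Mbd3 and Tcf3, had 105 to 536 and 668 to 3233 counts. Of the 26586 symbols listed, 5749 (21.6%) had no count in any library. For this reason Uqcr11 could not be tested between the groups.

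**Figure D3:**
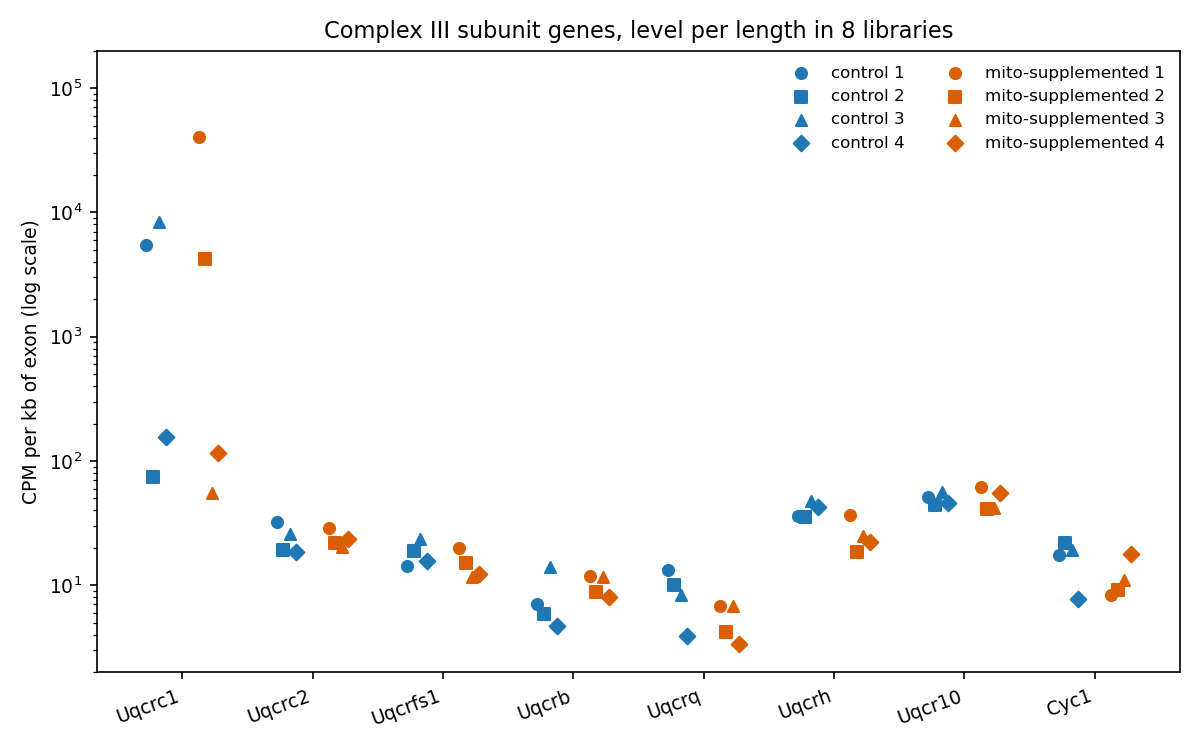
Level of the 8 counted complex III subunits in CPM per kb of exon (y axis, log scale), for each gene (x axis); each point is 1 library, coloured by group and shaped by replicate number. Uqcrc1 spans 55.2 to 40742, whereas all other subunits lie between 3.34 and 61.4 in every library, and Uqcr11, at 0, is not drawn.

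Per kb of exon, the order of the geometric mean levels over the 8 libraries was Uqcrc1 (935 CPM per kb), Uqcr10 (49.2), Uqcrh (31.4), Uqcrc2 (23.4), Uqcrfs1 (16.0), Cyc1 (13.0), Uqcrb (8.51) and Uqcrq (6.39). Uqcrc1 was above Uqcr10, Uqcr10 above Uqcrh, and Uqcrc2 above Uqcrfs1 in 8 of 8 libraries, and each of these steps exceeded the SD of the difference. The steps from Uqcrh to Uqcrc2, from Uqcrfs1 to Cyc1, from Cyc1 to Uqcrb and from Uqcrb to Uqcrq were smaller than the SD of the difference and held in 6, 5, 6 and 6 of 8 libraries. In mito-supplemented replicate 3, the lowest library for Uqcrc1, its 55.2 CPM per kb stood beside 41.6 for Uqcr10, 24.8 for Uqcrh and 20.4 for Uqcrc2. The order depends on the lengths used, which join all GENCODE M21 exons of a gene, while the annotation behind the counts is not given. Before division by length, Uqcrq was above Uqcrb, with a mean log2 CPM of 3.56 against 2.92.

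For the comparison of the groups, 8 of the 9 subunits passed the expression filter, and 0 of these 8 were called by edgeR's quasi-likelihood test, which required an adjusted p under 0.05 and a log2 fold change of 1 or more in either direction. Over all genes this test called 0% of 13873, so that the count of members could not be read against a background. At an unadjusted p under 0.05 there were again 0 of 8 members, beside 7.71% of all genes. Without mito-supplemented replicate 1 there was 1 member (Uqcrh), beside 14.1% of all genes, and in limma-voom with sample quality weights there were 3 (Uqcrh, Cyc1 and Uqcrfs1, all lower in mito-supplemented samples), beside 37.6%. The likelihood ratio test called 0 of 8 members and 0.418% of all genes, and limma-voom with sample quality weights called 0 of 8 and 18.6%. Without overlap between the groups in log2 CPM there were 0 of 8 members, beside 5.03% of all genes. The median log2 fold change of the 7 subunits other than Uqcrc1 was -0.30, compared with -0.10 over all genes. It was -0.021 with libraries scaled by their totals only, where all genes had 0.17, and -0.64 in limma-voom with sample quality weights, where all genes had 0.037. With TMM scaling in edgeR there were higher values in mito-supplemented samples for 2 of them (Uqcrb and Uqcr10). The values of Uqcrc2 and Uqcr10 were close to 0 and changed sign between scalings.

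The fitted log2 fold change of Uqcrc1 was 1.68 (SE 1.85), from means of 14574 ± 16967 CPM (SD, n = 4) for controls against 46657 ± 81607 CPM (SD, n = 4) for the mito-supplemented group. The medians ran the other way, at 11730 CPM in controls, compared with 8965 CPM in the mito-supplemented group, and the difference between the mean log2 CPM was 0.26. Mito-supplemented replicate 1 alone set the direction of the fit, as the log2 fold change was -1.24 without it and between 1.27 and 2.57 when any other library was left out. With sample quality weights in limma-voom it was -1.51.

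**Figure D4:**
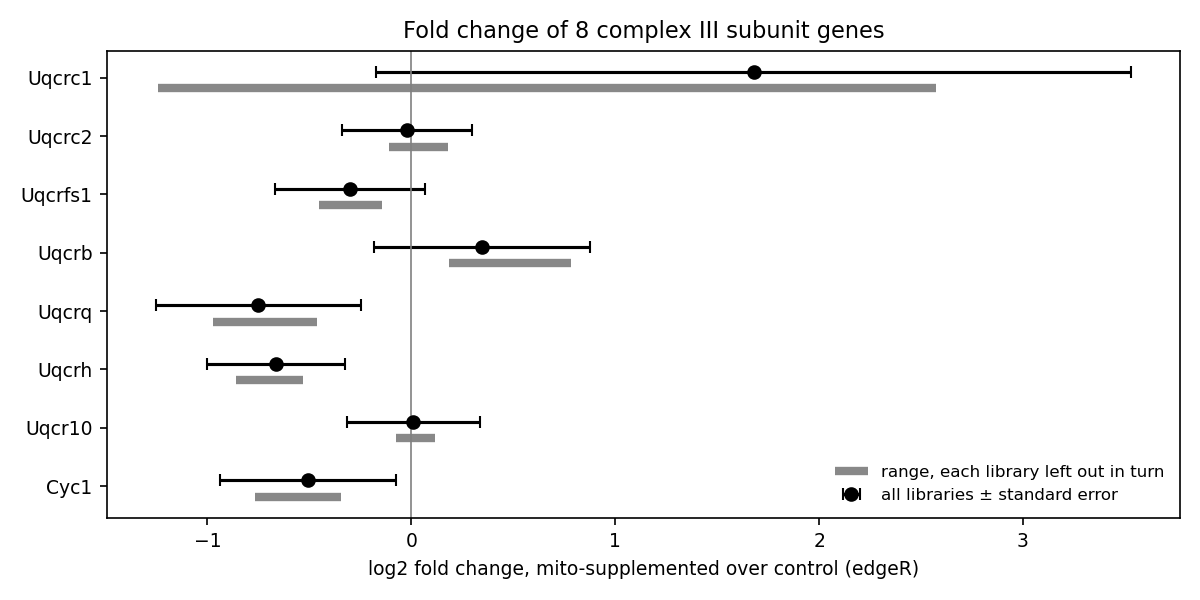
Log2 fold change of the 8 tested complex III subunits, mito-supplemented over control (x axis), for each gene (y axis); black points and whiskers are the edgeR estimate ± SE from all 8 libraries, and grey bars are the range when each library is left out in turn. The bar of Uqcrc1 crosses 0, from -1.24 to 2.57, and Uqcrh, Uqcrq, Cyc1 and Uqcrfs1 remain below 0 in each of these fits.

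The libraries with high Uqcrc1 counts were set beside the other measures of the same libraries. The 7 red cell markers listed in the table summed to 23.8, 3906, 2495 and 50.7 CPM in the controls, in replicate order, and to 4877, 79.7, 28.9 and 28.2 CPM in the mito-supplemented samples. Of the 3 libraries high in these markers, Uqcrc1 had a departure of 10.04 in control replicate 3 and 12.90 in mito-supplemented replicate 1, but 3.56 in control replicate 2. Without these 3 libraries the Uqcrc1 log2 fold change was -0.93 and the difference in departure -1.48. Rnr1 and Rnr2 took 19.4%, 37.8%, 36.6% and 74.0% of counts in controls and 14.9%, 44.3%, 34.8% and 42.2% in mito-supplemented samples. Total counts were 17658559 and 18219362 in the control libraries with high Uqcrc1 and 19760763 and 13370911 in the mito-supplemented ones, against 10370045 to 16116434 in the rest. The 7 immune markers listed summed to 7.43 to 129 CPM in controls, compared with 8.55 to 724 CPM in the mito-supplemented group, with mito-supplemented replicate 1 the highest and C1qb at or under 3 counts in each library. The part of these in the Uqcrc1 counts was not tested.

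Sharing of sequence was examined because reads that fit several genes can move counts between them. None of the 4550 stretches of 75 bases in Uqcrc1 transcripts occurred in the annotated transcripts of another gene, and no annotated exon of another gene overlapped its exons. Genes near it stayed low, as Tmem89 had 0 to 1 counts, Slc26a6 0 to 49 and Col7a1 1 to 43. Gm37284, 379 bases after Uqcrc1, was not analysed here. Stretches of Uqcrc2 (16.5%) were shared with Pdzd9, whose exons overlap it by 504 bases on the opposite strand and which had 0 to 28 counts. Stretches of Uqcrb (16.7%) were shared with Gm16089, Gm2962 and Gm5457, those of Uqcrh (1.07%) with Uqcrh-ps1 and those of Uqcr11 (1.69%) with Gm16418. The effect of sharing on the counts of these members is not known, as the handling of reads with several positions is not given. Uqcrb also overlapped Gm10767 by 50 exon bases on the opposite strand. Uqcrfs1, Uqcrq, Uqcr10 and Cyc1 shared 0%. Genomic sequence outside annotated transcripts was not searched.

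Among the 8049 tested genes with a mean of at least 10 CPM, those most like Uqcrc1 in log2 CPM over the 8 libraries were Sorl1 (Pearson r = 0.84), Pitpna (0.83), Mrpl37 (0.83), Zfp868 (0.80) and Dync1li1 (0.80). Their log2 CPM ranged over only 0.73 to 1.75 between libraries, compared with 9.53 for Uqcrc1. Uqcrc2 ranked 9th in likeness with r = 0.77, while Uqcr10 ranked 163rd (0.56), Uqcrfs1 174th (0.55), Uqcrq 2079th (0.28), Uqcrh 2407th (0.24) and Cyc1 5986th (-0.19). Uqcrb had a mean below 10 CPM and was not ranked. Uqcrc1 and Uqcrb had r = 0.49. Over its 7 pairs with the other subunits, Uqcrc1 had r from -0.19 to 0.77 with a median of 0.49, while the 21 pairs among those subunits had r from -0.08 to 0.70 with a median of 0.24. The libraries share depth and scaling across genes, so these are descriptions over 8 points.

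The genes that serve complex III were then described in the same fit. It called 0% of all 13873 genes, so counts of 0 could not be read against a background. Of 7 assembly factors, 0 were called, 1 had a log2 fold change above 0 and 6 below, with a median of -0.27, beside 6225 genes above and 7648 below (55.1%) and a median of -0.10 over all genes tested. With libraries scaled by their totals only, 2 assembly factors were above 0 and 5 below, and the median of all genes was 0.17 with 41.5% of them below 0. Ttc19, which clears fragments of the Rieske protein during assembly, was at 42.5 ± 32.3 CPM for controls against 29.1 ± 2.63 CPM with supplementation (SD, n = 4). Its log2 fold change of -0.55 (SE 0.49) turned to 0.14 without control replicate 1. Uqcc, an assembly factor for cytochrome b, had 0.13 (SE 0.59), which turned to -0.17 without control replicate 3 and to -0.14 without mito-supplemented replicate 4. Of the genes of cytochrome c, the acceptor of electrons from the complex, 0 of 2 tested were called. Cycs, which encodes somatic cytochrome c, had a log2 fold change of -0.56 (SE 0.67), and Hccs, which attaches its haem, of -0.73 (SE 0.62). The value of Hccs turned to 0.13 without control replicate 1, and Cycs moved to -0.14 without control replicate 4 and to -0.24 without mito-supplemented replicate 2. Scaling libraries by their totals only gave -0.069 for Cycs.

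Upstream of the complex, 0 of 13 tested genes of ubiquinone synthesis were called, beside 0% of all 13873 genes. Their median log2 fold change was 0.12 (0.34 with libraries scaled by their totals only). Over all genes tested the medians were -0.10 and 0.17, in the same order. Coq9 and Coq5, enzymes or partners of the final steps, had 0.48 (SE 0.68) and -0.17 (SE 0.48). Coq9 moved to 0.13 without control replicate 1 and to 0.15 without mito-supplemented replicate 4. Coq5 lay between 0.0092 and 0.042 when control replicate 1 or 2 or mito-supplemented replicate 2 or 3 was left out. It lay between -0.40 and -0.29 when control replicate 3 or 4 or mito-supplemented replicate 1 or 4 was left out. Among the genes that pass electrons to ubiquinone, 0 of 10 tested were called, with a median of -0.05 (0.05 with totals only). Sdha, the catalytic subunit of complex II, was at 105.5 ± 18.8 CPM for controls against 113 ± 17.8 CPM with supplementation (SD, n = 4), and Etfdh, which feeds electrons from fatty acid oxidation, had a log2 fold change of -0.21 (SE 0.45) that turned to 0.13 without control replicate 2. Of 6 mitochondrial peptidases that process imported proteins, 0 were called. Pmpca and Pmpcb, the subunits of the matrix processing peptidase and the members of this list to which the core proteins are related, had log2 fold changes of 0.14 (SE 0.34) and -0.22 (SE 0.37). Leaving out each library in turn gave 0.030 to 0.28 for Pmpca and -0.38 to -0.0060 for Pmpcb. Pmpca lay between 40.5 and 75.3 CPM in all 8 libraries, in contrast to Uqcrc1.

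In the neighbouring complexes, edgeR's quasi-likelihood test called 0 of 35 tested genes of complex I. It also called 0 of 11 of complex IV and 0 of 16 of complex V. The same test called 0% of all 13873 genes, so these counts could not be read against a background. The medians were -0.19, -0.31 and -0.27, beside -0.10 over all genes. They were 0.05, -0.11 and 0.01 with libraries scaled by their totals only, where all genes had 0.17. Ndufb9 and Ndufa13 of complex I had log2 fold changes of -0.33 (SE 0.37) and -0.13 (SE 0.30). With each library left out in turn, Ndufb9 ran from -0.54 to -0.20 and Ndufa13 from -0.18 to -0.080. Cox6a1 and Ndufa4 of complex IV had -0.14 (SE 0.40) and 0.20 (SE 0.39). Cox6a1 turned to 0.17 without control replicate 1 and to 0.012 without mito-supplemented replicate 2, and Ndufa4 to -0.10 without mito-supplemented replicate 4. Atp5b and Atp5a1 of complex V had -0.12 (SE 0.33) and -0.44 (SE 0.27), and Atp5b turned to 0.032 without control replicate 3 and to 0.015 without mito-supplemented replicate 2. Of the genes named from the related lists, Ndufa13, Atp5b, Etfdh and Pmpcb turned from below to above 0 with libraries scaled by their totals only. Ttc19, Hccs, Sdha, Pmpca, Pmpcb and Coq9 changed sign in limma-voom with sample quality weights. The groups did not overlap for 2 genes of complex I and 2 of complex V, beside the 5.03% of all genes. No list was tested as a set.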

How the data were processed

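RNA-Seq counts were analysed for 4 control and 4 mito-supplemented samples, grouped by their labels. Per the labels and the study's methods, the authors trimmed single reads with Trim Galore 0.4.4, mapped them to mm10 (GRCm38) with STAR 2.5.3a and counted them with featureCounts. The deposited values are raw counts per gene symbol. The annotation release, strand setting and handling of reads with several positions are not given in the sources used here. A further control library that the authors set aside was not analysed here.

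These were analysed with edgeR 4.0.16 (R 4.3.3), TMM normalization and the default filter, leaving 13873 genes. Groups were compared by the quasi-likelihood test (legacy settings) with Benjamini-Hochberg adjustment, and a call needed an adjusted p under 0.05 and a log2 fold change of 1 or more in either direction. The likelihood ratio test named in the study's methods, DESeq2 1.42.0 and limma 3.58.1 served as alternatives, beside other scalings, filters and left-out libraries. Levels are CPM, and log2 CPM was computed with a prior count of 2. P-values measure the spread between these samples. The members and gene lists were chosen with earlier results of these data known. Named were all 9 members, the 2 most expressed genes of each list, the 5 genes most correlated with Uqcrc1, neighbours and overlapping genes, and pseudogenes of members. Slc26a6 and Col7a1 near Uqcrc1, Mbd3 and Tcf3 beside Uqcr11, Gdf9 beside Uqcrq, Ndufs6 and Ndufb7 were added after their values were seen. List symbols were matched to the table's older symbols through RefSeq synonyms, for instance Uqcc1 to Uqcc. Coordinates and exon lengths are from GENCODE M21 on GRCm38. The fits that compared the groups were tested on simulated data, with a pass mark set only for a simulation of low spread. Replicates were compared for duplicates, and no pair of libraries agreed within sampling noise, with a chi-square per degree of freedom of at least 65.1.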

Additional observations from a re-analysis of the deposited data

Results flagged for a closer look

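In groups of 4 samples, a sample was picked out when its gap to the nearest other sample took up more of the group's range than Dixon's 95% critical value allows. This occurred in 6 of 80 groups of values examined, where chance gives about 4.

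Of the complex III subunits, the departure of Uqcrc2 from its complex was 1.74 in mito-supplemented replicate 1, compared with 1.42 to 1.47 in the other mito-supplemented samples. The departure of Uqcrh was 1.47 in control replicate 4, compared with 0.72 to 0.84 in the other controls. Uqcrc1 itself was not picked out in either group, as its values fell into pairs.

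Ndufb9 of complex I was at 5.01 log2 CPM in control replicate 4, below 6.03 to 6.15 in the other controls. Uqcc, the cytochrome b assembly factor, was at 1.34 log2 CPM in control replicate 3, below 3.08 to 3.32. Coq9 of ubiquinone synthesis was at 0.78 log2 CPM in control replicate 1, below 3.92 to 4.08. The summed immune markers were at 9.50 log2 CPM in mito-supplemented replicate 1, above 3.10 to 3.92 in the other mito-supplemented samples.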

How the results depend on the processing

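Complex III subunits called stayed at 0 under all 22 alternatives. The count over all genes was 0 with the quasi-likelihood test, where 1069 had an unadjusted p under 0.05, and rose to 58 with the likelihood ratio test, 141 with DESeq2 and 2578 with limma-voom and sample quality weights. With the last of these, 1 gene of the related lists was called (Ndufb7 of complex I, log2 fold change -1.04), Uqcrh and Cyc1 passed an adjusted p of 0.05 (0.0311 and 0.0478) below the fold threshold, and the median log2 fold change of the other subunits was -0.64 in place of -0.30. That median was -0.021 with library sizes only, under which the median of all genes moved from -0.10 to 0.17. The cause of the differences between the tests was not tested. Leaving out each library in turn gave medians of -0.38 to -0.14 and 0 genes called, with 572 genes (mito-supplemented replicate 2 left out) to 2003 genes (mito-supplemented replicate 1 left out) at an unadjusted p under 0.05.

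The Uqcrc1 log2 fold change ranged from -1.24 to 2.57 and its difference in departure from -1.18 to 1.93 over the left-out libraries. The difference was -1.46 when samples with a common label code were added together, and 0.41 when Uqcr11 was left out of the median, an alternative chosen after seeing the data, as were leaving Uqcrc1 out of the library sizes, the fit without legacy settings and the fit without the libraries high in red cell markers. The replicate numbers did not pair the samples, as the deviations of same-numbered samples correlated at -0.33 to 0.22. With a replicate block, 0 genes were called, the Uqcrc1 log2 fold change was 1.09 and the departure difference 0.56. Among the counted subunits Uqcrb had the fewest counts, with 21 in control replicate 4.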
